A study of Mus musculus with 11 samples.

Results

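Binding of the muscle transcription factor MyoG was compared with binding of MyoD in myotubes made from C2C12 cells, a mouse myoblast line. The sites compared were all 35380 MyoG peaks and all 39700 MyoD peaks deposited for myotubes, 75080 of 230671 regions in the 5 ChIP-seq lists of the series. A site was called shared where a MyoG and a MyoD peak overlapped by 1 bp or more. The series asked how both factors and RNA made at enhancers act in muscle differentiation, and it holds 11 samples in 11 groups. The MyoG library (antibody M-225) and the MyoD library (antibody C-20) both came from cells labelled strain C3H, taken after 48 h in differentiation medium with 2% horse serum. Beside them stand a MyoD library and an H3K4me1 library (ab8895) from proliferating C2C12 myoblasts in 10% fetal bovine serum, and an H3K4me1 library from the 48 h myotubes. Expression was taken from polyA RNA of C2C12 cells at 4 h of differentiation in the GFP controls of the study's RNA interference (GFPi) and overexpression (pHAN_GFP) of an enhancer RNA. Each group has 1 library, so differences between the lists could not be set against replicate spread and no p-value was computed. The intervals given with shares are exact (Clopper-Pearson) 95% intervals and cover counting error only.

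MyoD and MyoG are basic helix-loop-helix proteins that pair with E proteins and bind the E-box, the sequence CANNTG, with a preference for a GC core (CAGCTG). MyoD is present in myoblasts and opens the muscle programme, and MyoG is switched on as cells leave the cell cycle and drives the genes of the contractile fibre. H3K4me1 is a histone mark of enhancers.

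Promoters at which the factors' peaks lay over a gene start are printed here as examples. Only 5.55% of shared MyoG peaks lay within 1 kb of a start, so these promoters do not stand for all sites. Acta1, Chrna1 and Chrng had the highest mean MyoG and MyoD rank at the start among genes of 1 FPKM or more with 1 RefSeq start. Myog is the gene of MyoG itself, and Mdm2 is the shared site with the largest rank difference in favour of MyoG among strong MyoG peaks. Among genes chosen in the same way, Vkorc1 had the highest MyoG peak at a start without MyoD, and Fbn1 the highest MyoD peak at a start without MyoG. Each line gives the 250 bases before the start from RefSeq (build GRCm38.p6), 5′ to 3′ on the gene's strand, with every E-box in capitals.
Acta1, chr8:123894776-123895025, minus strand: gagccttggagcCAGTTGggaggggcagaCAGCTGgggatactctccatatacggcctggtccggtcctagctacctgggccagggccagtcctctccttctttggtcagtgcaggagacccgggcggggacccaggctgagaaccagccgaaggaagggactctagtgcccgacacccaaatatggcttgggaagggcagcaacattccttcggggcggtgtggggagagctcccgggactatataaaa
Chrna1, chr2:73580339-73580588, minus strand: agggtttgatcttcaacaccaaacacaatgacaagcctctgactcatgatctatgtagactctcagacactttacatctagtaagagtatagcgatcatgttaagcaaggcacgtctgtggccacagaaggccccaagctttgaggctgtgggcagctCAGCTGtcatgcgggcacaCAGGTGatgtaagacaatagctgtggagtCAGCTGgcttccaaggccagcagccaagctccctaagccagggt
Chrng, chr1:87205561-87205810, plus strand: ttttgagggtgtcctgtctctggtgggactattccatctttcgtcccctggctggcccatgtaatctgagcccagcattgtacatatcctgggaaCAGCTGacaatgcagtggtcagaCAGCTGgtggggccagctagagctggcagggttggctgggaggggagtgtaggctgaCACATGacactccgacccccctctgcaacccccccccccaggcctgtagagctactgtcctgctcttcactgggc
Myog, chr1:134289754-134290003, plus strand: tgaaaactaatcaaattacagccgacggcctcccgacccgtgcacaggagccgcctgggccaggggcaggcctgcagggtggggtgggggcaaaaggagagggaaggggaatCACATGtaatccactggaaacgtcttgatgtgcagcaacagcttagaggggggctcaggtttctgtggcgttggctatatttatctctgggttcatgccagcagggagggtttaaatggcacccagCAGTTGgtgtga
Mdm2, chr10:117710759-117711008, minus strand: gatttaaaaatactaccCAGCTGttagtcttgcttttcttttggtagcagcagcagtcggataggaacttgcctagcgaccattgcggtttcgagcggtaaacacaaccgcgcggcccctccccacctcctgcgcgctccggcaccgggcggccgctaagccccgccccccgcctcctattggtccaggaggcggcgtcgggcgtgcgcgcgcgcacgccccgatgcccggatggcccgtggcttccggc
Vkorc1, chr7:127895618-127895867, minus strand: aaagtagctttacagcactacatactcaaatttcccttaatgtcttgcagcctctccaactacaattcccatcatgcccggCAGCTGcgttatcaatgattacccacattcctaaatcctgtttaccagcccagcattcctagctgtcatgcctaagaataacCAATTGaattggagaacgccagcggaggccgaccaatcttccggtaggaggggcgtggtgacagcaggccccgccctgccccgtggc
Fbn1, chr2:125506439-125506688, minus strand: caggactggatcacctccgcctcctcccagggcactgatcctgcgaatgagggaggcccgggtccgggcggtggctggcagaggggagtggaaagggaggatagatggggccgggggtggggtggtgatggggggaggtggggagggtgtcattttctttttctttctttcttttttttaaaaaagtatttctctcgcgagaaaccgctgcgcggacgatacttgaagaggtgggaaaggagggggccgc
Acta1, skeletal muscle actin, has a CAGCTG 221 bases before its start, and Chrna1, a subunit of the muscle acetylcholine receptor, has CAGCTG at 92 and 44 bases and CAGGTG at 73 bases before it. Chrng, the fetal subunit of the same receptor, has CAGCTG at 155 and 132 bases. The Myog window holds no CAGCTG: its E-boxes are CACATG at 138 and CAGTTG at 12 bases. Mdm2, the ubiquitin ligase of p53, has CAGCTG at 233 bases, and Vkorc1, an enzyme of vitamin K recycling, has it at 169 bases. Fbn1, the matrix protein fibrillin, has no E-box in its window. The peaks over the starts scored 2845 for MyoG and 3100 for MyoD at Acta1, 1685 and 3100 at Chrna1 and 1677 and 3100 at Chrng. Vkorc1 had MyoG at 169 and Fbn1 had MyoD at 588. These are peak scores of the authors, in which many of the highest peaks share the value 3100.

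MyoG bound mostly where MyoD bound. Of the MyoG peaks, 27442 of 35380 (77.6%, 77.1% to 78.0%) overlapped a MyoD peak, and 26543 of 39700 MyoD peaks (66.9%, 66.4% to 67.3%) overlapped a MyoG peak. The MyoG list left 7938 peaks without MyoD and the MyoD list 13157 peaks without MyoG. Where the peaks met they lay almost on top of each other: the centres of paired peaks were a median of 47 bp apart and within 183 bp in 90% of pairs. The lists differ in length and in how wide the peaks are, with a median width of 572 bp for MyoG and 747 bp for MyoD. On the X chromosome 76.9% of 415 MyoG peaks had MyoD, and 55.8% of 565 MyoD peaks had MyoG, the lowest share of a chromosome for MyoD. On the other chromosomes the range was 73.6% to 80.8% for MyoG and 62.7% to 70.15% for MyoD.

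The overlap depended on how high a peak ranked in its own list. Peaks carry a score given by the authors, with a minimum of 60, and each score was turned into a percentile of its own list, where 100 is the highest. In the highest decile all 3538 MyoG peaks had MyoD, so 0 of 3538 lacked it, which allows a share of up to 0.0848% as 3 counts of the total, or 0.104% as the exact upper limit. In the highest MyoD decile 3911 of 3970 peaks had MyoG (98.5%, 98.1% to 98.9%). With sharing defined instead by peak centres within 250 bp, 400 MyoG and 570 MyoD peaks of these highest deciles lacked the other factor. In the lowest decile 41.4% of MyoG peaks had MyoD (39.8% to 43.0%) and 32.0% of MyoD peaks had MyoG (30.5% to 33.4%). At each of the 10 deciles the share was higher for MyoG peaks than for MyoD peaks. The score at the edge of the highest decile was 601 for MyoG (601.49 just inside, 601.46 just outside) and 1070 for MyoD (1069.58 just inside, 1068.99 just outside). The value 3100 itself was shared by 31 MyoG and 505 MyoD peaks, and 6 MyoG and 56 MyoD peaks lay above it, so scores were compared only by rank. Median width was 1514 bp for MyoD peaks at 3100 and 1303 bp for those above it, and 1153 bp and 1106 bp for MyoG. Whether a score above 3100 marks a stronger site than 3100 itself is not known, and ranking does not remove this.

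**Figure D1:**
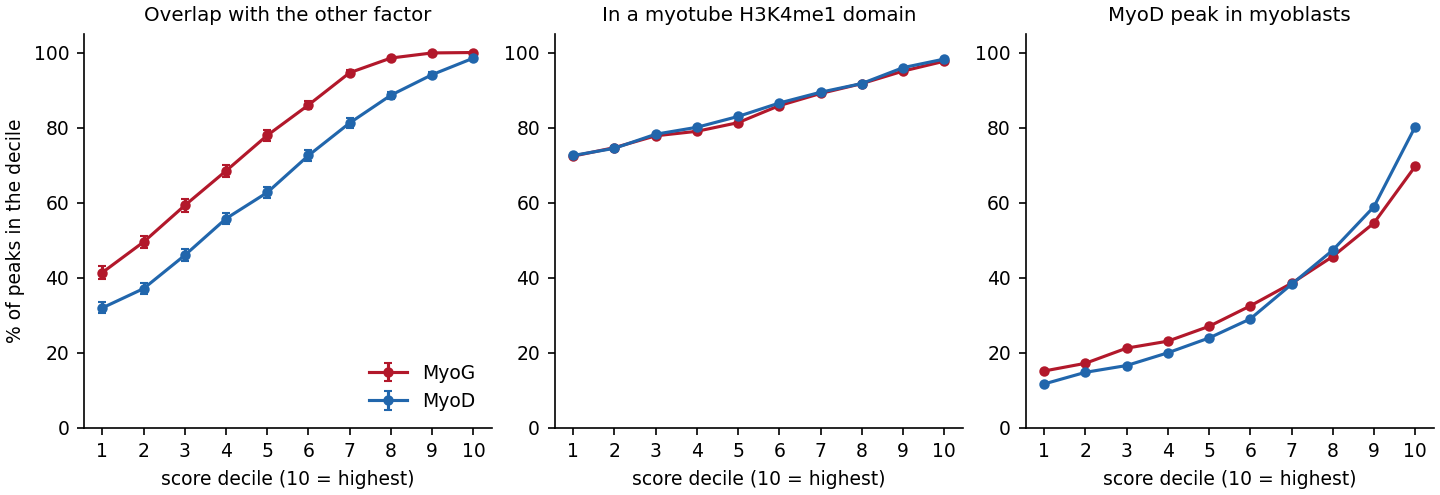
Share of peaks (y axis, percent) in each score decile of the MyoG list (red) and the MyoD list (blue), from the lowest (1) to the highest (10). Left: peaks that overlap the other factor, with 95% Clopper-Pearson bars, which reach 100% for MyoG and 98.5% for MyoD. Middle: peaks in a myotube H3K4me1 domain. Right: peaks over a MyoD peak of myoblasts, 69.7% for MyoG and 80.2% for MyoD in the highest decile.

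At shared sites the ranks of the factors went together. The 26492 pairs in which each peak was the best overlap of the other had a Spearman correlation of 0.69 between MyoG and MyoD percentiles, given as a description across sites of 1 library each. In 43.3% of pairs the percentiles lay within 10 points of each other and in 75.5% within 25 points. By chromosome the correlation was between 0.65 and 0.71. It was 0.69 in the 23668 pairs inside a myotube H3K4me1 domain and 0.47 in the 2824 pairs outside one. It was 0.70 where MyoD was already bound in myoblasts (10904 pairs) and 0.61 where it was not (15588 pairs). The correlation was 0.62 among pairs at or above the 50th percentile of MyoD, 0.20 below it and 0.45 among the 3910 pairs in the MyoD top 10%. A narrower range of ranks by itself lowers a correlation.

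The MyoD list gave a band for the MyoG rank rather than a value. Pairs in the highest MyoD decile had a median MyoG percentile of 92.9 (quartiles 83.1 and 97.05), those in decile 6 had 54.2 (36.1 and 68.4), and those in the lowest had 30.5 (16.2 and 45.8). The 561 MyoD peaks with a score of 3100 or more were paired with MyoG peaks of a median percentile of 98.5, with a lowest value of 51.8, and 495 of them were in the MyoG top 10%. All 35 MyoG peaks of 3100 or more that had a partner in the pairing lay at or above percentile 97.4 of MyoD.

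**Figure D2:**
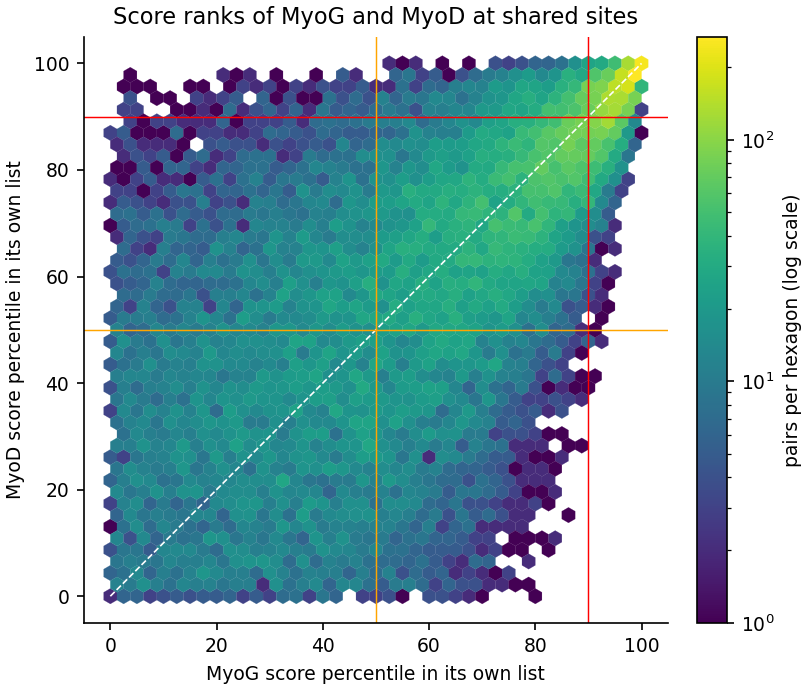
MyoG score percentile (x axis) against MyoD score percentile (y axis) of the 26492 pairs, as counts per hexagon on a log colour scale. Red lines mark percentile 90, orange lines percentile 50 and the dashed line equal percentiles. The lower right corner, high for MyoG and low for MyoD, holds 5 pairs and the upper left corner, high for MyoD and low for MyoG, holds 188.

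The 15 pairs with the highest mean percentile lay near genes of many kinds, all inside H3K4me1 domains of myotubes. Such a domain also held 2343 of all 2372 pairs in the highest decile of both lists (98.8%). The domains therefore do not set the 15 apart from other strong pairs. All 15 had a MyoD score of 3100 or more, so their choice and order depend on how scores at and above 3100 are ranked. The first of the 15 was a site with no gene within 50 kb, on chromosome 1 (185728287 to 185730119, mm9). It had a MyoG score of 3016 and a MyoD score of 3200. A site 1.37 kb outside Dok7, the adaptor that activates the receptor kinase MuSK at the nerve-muscle synapse, scored 2317 for MyoG and 3187 for MyoD (chromosome 5, 35397096 to 35398361), in a domain of 25 kb with a deposited fold of 4.19 over control. A site 0.609 kb from Ccna2, the gene of cyclin A2 of the cell cycle, had the highest MyoG score of the list, 3230, against 3100 for MyoD (chromosome 3, 36449982 to 36450918). Myoblast MyoD there was only 162 (percentile 50.1 of its own list). The sites of Ltbp2, a matrix protein that resembles the latent TGF-beta binding proteins, and Arhgef2, an activator of the GTPase RhoA, were at 3200 and 3193 for MyoG and at 3100 for MyoD in each case, and MyoD stood at 3100 in myoblasts too.

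The other named pairs of that group lay in or near Cd97, Fggy, Dcps, Map3k14, Tubb2b (14.3 kb away, the farthest), Pstpip1, Agap1, Ddx60, Pigp and 1 further region with no gene within 50 kb. Their MyoG scores ran between 1990 and 3218 and their MyoD scores between 3100 and 3215. Cd97, Dcps and Ddx60 had no MyoD peak in myoblasts at these sites. Expression was taken from the control cells at 4 h of differentiation, and RNA of the 48 h myotubes was not analysed here. It differed widely in the GFPi control RNA: Cd97 was at 169 FPKM and Tubb2b, a beta tubulin, at 146 FPKM, whereas Ddx60 was at 0.0247 FPKM and Pstpip1 at 0.0347 FPKM.

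Sites high for MyoG and low for MyoD were rare. A pair was called high for a factor in its top 10% and low below percentile 50, which 5 of 3471 pairs in the MyoG top 10% met for MyoD, against 188 of 3910 pairs in the MyoD top 10% for MyoG. The first of the 5 lay over the start of Mdm2 (chromosome 10, 117147703 to 117148381), with a MyoG score of 649 (percentile 91.1) and a MyoD score of 137 (percentile 41.3). Another MyoG peak at Mdm2 was weak at 73.2 beside a MyoD peak of 259, so the ranks at these neighbouring sites differed in opposite directions. The others lay in Ccdc43 (MyoG 697, MyoD 159), 6.71 kb from Ube2w, a ubiquitin-conjugating enzyme (794 and 166), in Vac14, a scaffold of the lipid kinase PIKfyve (603 and 173), and on chromosome 18 away from genes (622 and 162). They stood just past the limits that define them, with MyoG percentiles of 90.04 to 93.6 and MyoD percentiles of 41.3 to 49.7. Of the 5, 4 lay in an H3K4me1 domain and 1 had a MyoD peak in myoblasts. The shares were 98.1% and 69.8% of all pairs in the MyoG top 10%, and 89.3% and 41.2% of all pairs.

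Sites high for MyoD and low for MyoG carried MyoD in myoblasts in most cases. Of these 188 pairs 162 overlapped a myoblast MyoD peak (86.2%, 80.4% to 90.8%), against 3137 of all 3910 pairs in the MyoD top 10% (80.2%, 78.9% to 81.5%) and 10904 of all 26492 pairs (41.2%). The intervals of the first pair of shares overlap. In H3K4me1 domains lay 179 of the 188 pairs (95.2%, 91.1% to 97.8%). This share was 98.3% (97.8% to 98.65%) of all pairs in the MyoD top 10% and 89.3% of all pairs. The MyoG peaks of the 188 pairs had a median width of 537.5 bp, against 510 bp for all shared MyoG peaks below percentile 50. Their MyoD peaks had a median width of 948.5 bp, against 1138 bp in all pairs of the MyoD top 10%. In the wider set where MyoD stood over 30 percentile points above MyoG, 1374 of 2881 pairs had myoblast MyoD (47.7%, 45.8% to 49.5%), and where MyoG stood over 30 points above MyoD, 427 of 1942 pairs had it (22.0%, 20.2% to 23.9%). These sets differ in MyoD rank, and myoblast MyoD rises with MyoD rank. Within a MyoD decile, pairs with and without myoblast MyoD differed in median MyoG percentile by between -1.93 and 6.21 points: in the highest decile the medians were 92.6 with it and 93.7 without it, and in the lowest 35.6 and 29.8.

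Examples of this kind reached the far ends of both lists. A site 9.01 kb from Islr, a leucine-rich repeat protein of connective tissue cells, had a MyoG score of 62.9 (percentile 3.57) and a MyoD score of 2440 (percentile 97.6), and MyoD stood at 2559 there in myoblasts (chromosome 9, 58016040 to 58017507). A site 17.3 kb from Ncoa3, a coactivator of nuclear receptors, scored 61.3 for MyoG and 1782 for MyoD. A site 5.35 kb from Fgfr4, an FGF receptor of muscle cells, scored 62.7 for MyoG and 1461 for MyoD. Other peaks at Fgfr4 ranked high for both factors, with scores of 1386 and 1702 for MyoG and 3100 in both cases for MyoD.

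Tnnc2, the fast skeletal troponin C, showed the same within 1 locus. The site 1.72 kb outside it scored 61.6 for MyoG and 1105 for MyoD with no myoblast MyoD peak, and the site inside it scored 508 for MyoG (percentile 87.3) and 707 for MyoD (percentile 84.1). The remaining named pairs lay near Zhx1, Xrn1 and Jph4 and in 3 regions with no gene within 50 kb, with MyoG scores of 61.0 to 65.7 and MyoD scores of 1151 to 1966.

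Peaks of 1 factor alone were mostly weak. The 7938 MyoG peaks without MyoD had a median percentile of 20.6 in the MyoG list and a median width of 469 bp, and the 13157 MyoD peaks without MyoG had a median percentile of 26.2 in the MyoD list and a median width of 669 bp. A peak of the other factor lay within 1 kb, without overlap, for 13.6% of the MyoG and 11.7% of the MyoD peaks. The highest MyoG peak without MyoD scored 506 (percentile 87.2), 8.22 kb from the vomeronasal receptor gene Vmn1r223 (chromosome 13, 23350412 to 23350966), outside any H3K4me1 domain and with 0 FPKM for the gene in both control libraries. Next came a peak of 412 in Ap3b1, a subunit of a vesicle coat, also outside the domains. Others of the 10 lay 8.03 kb from Exog, a mitochondrial nuclease (316), in Cdc45, a replication factor (313), in Fhl1, a LIM-domain protein of muscle (307), and 21.3 kb from Rhou, a small GTPase (302). The remaining 4 had no gene within 50 kb and scored 303 to 396. In all, 5 of these 10 lay in a domain and 4 had a MyoD peak in myoblasts. Of the 740 MyoG peaks without MyoD at or above percentile 50, 75.3% lay in a domain and 17.8% had a myoblast MyoD peak.

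The MyoD peaks without MyoG reached further up their list. Of them 59 were in the MyoD top 10%, and 58 of these 59 (98.3%) lay in an H3K4me1 domain and 48 (81.4%) had a myoblast MyoD peak. The shares were close to those of all 3970 MyoD peaks in the top 10%, 98.3% in a domain and 80.2% with a myoblast MyoD peak. For 8 of the 59 a MyoG peak lay within 1 kb. The highest scored 1980 (percentile 96.2) on chromosome 1, 73804460 to 73805937, with no gene within 50 kb. A peak in Hdac4, the histone deacetylase that holds back MEF2 factors, scored 1789 within a domain of 34.0 kb, with a myoblast MyoD score of 397 (chromosome 1, 93951396 to 93952425). A peak 0.405 kb from Src, a tyrosine kinase, scored 1713. Peaks in Fgf16, a growth factor (1969), Bace2, a protease (1944), and Kcnn3, a potassium channel (1651), lay in genes that reached at most 0.548 FPKM in the control RNA at 4 h. The others named lay in 1110051M20Rik (1774), 27.1 kb from Tas1r2 (1642) and in 2 regions away from genes (1772 and 1665).

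Shared sites lay in H3K4me1 domains more often than sites of 1 factor. Of MyoG peaks without MyoD, 5477 of 7938 (69.0%, 68.0% to 70.0%) lay in a myotube domain, against 24405 of 27442 with MyoD (88.9%, 88.6% to 89.3%). Of MyoD peaks without MyoG, 10043 of 13157 (76.3%, 75.6% to 77.1%) did, against 23713 of 26543 with MyoG (89.3%, 89.0% to 89.7%). Below percentile 50 the shares were 68.4% of MyoG peaks without MyoD and 83.0% with it, and 74.2% of MyoD peaks without MyoG and 81.6% with it. Peaks that overlapped a myotube domain and no myoblast domain made up 18.5% of MyoG peaks without MyoD and 25.7% with it. For MyoD peaks they made up 26.9% without MyoG and 25.9% with it. Median domain length was 3600 bp at MyoG peaks without MyoD and 5000 bp at shared ones. Among all 70587 myotube domains, 18575 (26.3%) held both factors, 3297 (4.67%) MyoG only, 6471 (9.17%) MyoD only and 42244 (59.85%) neither. Domains with both had a median length of 4000 bp and a median fold of 3.15, against 2600 bp and 2.73 with MyoG only, 2800 bp and 2.83 with MyoD only and 2000 bp and 2.50 with neither. Longer domains offer more room for a peak, and this was not corrected for.

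MyoG peaks without MyoD in myotubes included 857 (10.8%, 10.1% to 11.5%) that overlapped a MyoD peak of myoblasts. Of those 857, 83.6% (80.9% to 86.0%) lay in a myotube H3K4me1 domain and 91.8% in a myoblast domain, whereas of the 7081 without MyoD at either stage 67.2% (66.1% to 68.3%) lay in a myotube domain and 52.96% in a myoblast domain. Among MyoD peaks without MyoG, 2600 of 13157 (19.8%) overlapped myoblast MyoD, against 10927 of 26543 with MyoG (41.2%).

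At the genes of both factors some sites had close ranks for MyoG and MyoD and others did not. Myog lies on chromosome 1, 136186580 to 136189125, and had 5 MyoG and 9 MyoD peaks within 10 kb, inside domains of 23.4 and 18.8 kb. The peak over its start (136185933 to 136186876) had a MyoG score of 425 (percentile 83.9) and a MyoD score of 3100, against 92.2 for MyoD in myoblasts, and this is the promoter printed above with CACATG and CAGTTG. A site 9.96 kb past the gene had the highest MyoG score near it, 704 (percentile 92.2), with MyoD at 1376 (percentile 93.0). A site 4.06 kb before it was low for MyoG at 66.1 (percentile 7.74) and higher for MyoD at 636 (percentile 82.3). The 4 remaining MyoD peaks had no MyoG partner and scored 77.5 to 154.

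Myod1 lies on chromosome 7, 53631843 to 53634462, and its enhancers lie before the gene, where the study's enhancer RNA is made. Sites within 30 kb were taken for this gene. At the start MyoG scored 92.5 (percentile 30.7) and MyoD 409 (percentile 73.7). The site 4.84 kb before the gene scored 258 for MyoG (percentile 72.3) and 499 for MyoD (percentile 77.8), and no MyoD peak was called there in myoblasts. The site 10.1 kb before it was the strongest for MyoG, 1360 (percentile 97.8) against 1673 for MyoD (percentile 94.8), also without a myoblast peak. Sites 22.4 and 25.8 kb before the gene scored 1139 and 1147 for MyoG and 2435 and 3100 for MyoD, with 904 and 1218 for MyoD in myoblasts. In the 30 kb windows 4 MyoD peaks had no MyoG partner, with scores of 62.5 to 130, and no MyoG peak lacked MyoD.

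**Figure D3:**
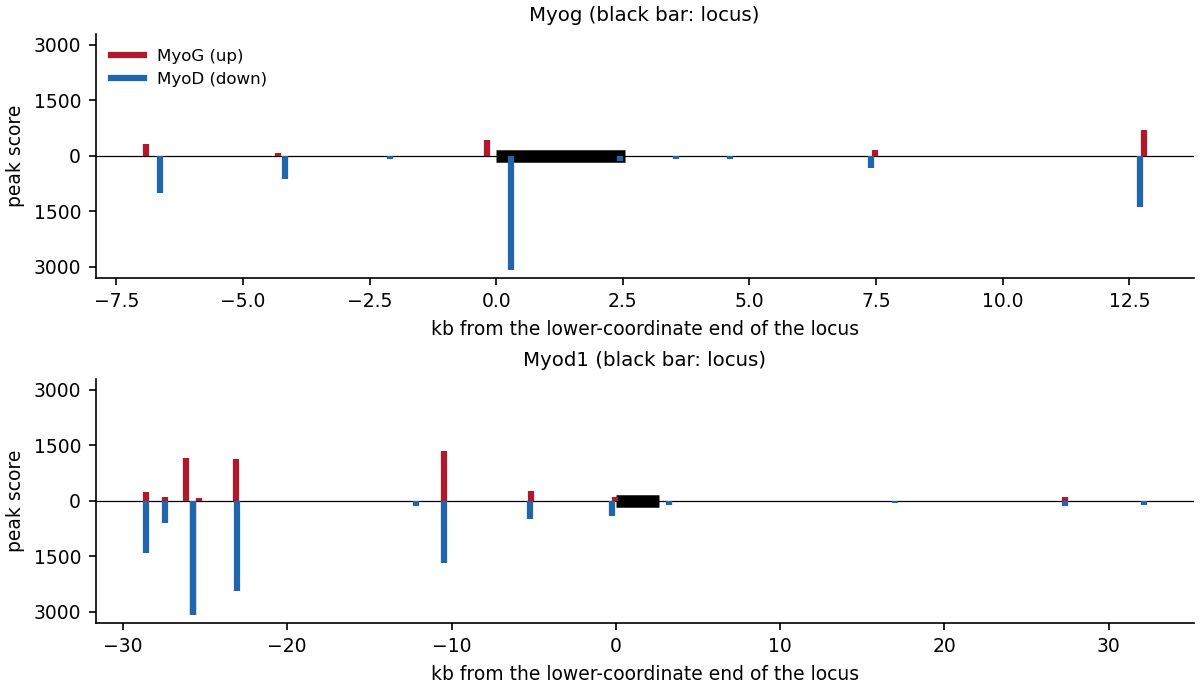
Peaks near Myog (top, within 10 kb) and Myod1 (bottom, within 30 kb), by distance of the peak centre from the lower-coordinate end of the locus in kb (x axis). Peak scores of MyoG point up in red and of MyoD point down in blue, and the black bar is the locus. The start of Myog carries MyoD at 3100 and MyoG at 425.

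Genes were next compared by the peaks within 10 kb of their locus, for 20368 gene symbols of the expression tables. MyoG peaks lay near 10778 of them (52.9%) and MyoD peaks near 11416 (56%). Both factors were near 9787 (48.1%), MyoG only near 991 (4.87%), MyoD only near 1629 (8%) and neither near 7961. With the MyoD list cut to the length of the MyoG list, MyoG only was near 1263 and MyoD only near 1308. Genes with both had the highest expression in the GFPi control at 4 h, a median of 6.42 FPKM, against 4.17 with MyoG only, 5.28 with MyoD only and 0 with neither. They were also longer, with a median locus of 29152 bp against 18712 bp with MyoG only and 18831 bp with MyoD only, and a longer locus has more room for peaks. A gene's highest MyoG peak had a median percentile of 67.8, and its highest MyoD peak 69.1.

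Contractile and synaptic genes had both factors nearly without exception. Of 42 sarcomere genes 41 had both (97.6%, against 48.1% of all genes), and 1, Myl3, had neither. Mybph, a myosin-binding protein, had its highest peaks at 3100 for MyoG and 3100 for MyoD. Acta1 stood at 2845 for MyoG and 3100 for MyoD, and Myom1, a protein of the M-band, at 2817 and 3100. Lmod2, an actin nucleator, stood at 1655 for MyoG and 3100 for MyoD, Tnnt2, cardiac troponin T, at 2271 and 2725, and Tnnt3, fast troponin T, at 1434 and 3100. The median of the highest peaks over the list was percentile 90.3 for MyoG and 93.6 for MyoD, and at its 118 pairs within 10 kb MyoG ranked above MyoD in 65. Of 28 genes of the synapse and of excitation 27 had both (96.4%). Sln, the small inhibitor of the calcium pump, had MyoG only (percentile 62.4). Dok7, Chrna1, Chrng, Chrnd, Ryr1 and Cacng1 had the highest mean of MyoG and MyoD percentile. Chrng and Chrnd are neighbours and share their highest peaks, 1677 for MyoG and 3100 for MyoD. The list medians were 90.7 for MyoG and 94.9 for MyoD.

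Genes of fusion and adhesion had both factors in 23 of 25 members (92%, against 48.1% of all genes) and neither in 2, Neo1 and Nphs1. Adam12, a metalloprotease of fusing cells, scored up to 2091 for MyoG and 3100 for MyoD, and Tmem8c, the fusion protein Myomaker, up to 1431 for MyoG and 2701 for MyoD. Of the genes of muscle energy metabolism 16 of 20 (80%) had both. Myoglobin, Mb, reached 3100 for MyoG and 3100 for MyoD, as did Gapdh. Ckmt2, a mitochondrial creatine kinase, had MyoG only (percentile 11.04) and Cox7a1, a subunit of respiratory complex IV, MyoD only (percentile 3.57). Ckm, muscle creatine kinase, given as a muscle marker, had its highest peaks at 87.8 for MyoG and 265 for MyoD.

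Regulators of myogenesis had a higher median rank for MyoD than for MyoG, with exceptions, as did sarcomere genes, synapse genes and all genes together. Of 24, 21 had both (87.5%, against 48.1% of all genes), while Myf5 and Myf6, the other myogenic bHLH genes, had neither within 10 kb. The median of the highest peaks was 84.2 for MyoG and 91.2 for MyoD, 5 genes reached the MyoG top 10% and 13 the MyoD top 10%, and MyoG ranked above MyoD at 21 of 65 pairs. Tcf12 and Tcf4, E proteins that pair with both factors, ranked higher for MyoG, at percentiles 99.88 and 99.14 for MyoG and 99.22 and 97.79 for MyoD. For Tcf12 the MyoD score was 3100, which 505 MyoD peaks share, and 99.22 is the averaged percentile of that tie. The size of its small difference therefore depends on how ties are ranked. Vgll2, a cofactor of TEAD proteins, also ranked higher for MyoG, at 96.7 for MyoG and 88.1 for MyoD. Pax7, the satellite cell factor, stood at 149 for MyoG (percentile 53.8) and 2049 for MyoD (percentile 96.5). Pax7, Tcf3 and Vgll2 were named after their values were seen, for their rank differences. Tcf3, the E protein E2A, stood at percentile 22.0 for MyoG and 63.1 for MyoD. Inhibitors of differentiation showed a difference of the same sign, with MyoG above MyoD at 16 of 64 pairs. Of 26 members 18 had both (69.2%), and Id2 and Klf4 had MyoD only (percentiles 51.5 and 38.1). Heyl, a Notch target, stood at 1474 for MyoG and 3220 for MyoD. MyoG ranked above MyoD at 9 of 27 pairs of muscle energy metabolism and at 65 of 118 pairs of sarcomere genes, so the sign is not particular to regulators. Over all genes MyoG ranked above MyoD at 8921 of 18124 pairs within 10 kb, with a median difference of -0.25 points, and the lists were not tested against that.

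Cell cycle genes had both factors in 17 of 30 members (56.7%, against 48.1% of all genes) and neither in 8. They had MyoD only in 4 (Tyms, Bub1b, Ccnb1 and Kif20a) and MyoG only in Ccne2, against 8% and 4.87% of all genes. Ccna2 was the highest, with E2f2, a factor of the G1 to S transition, next at 2193 for MyoG and 3100 for MyoD, and Rrm2, a subunit of ribonucleotide reductase, at 1716 and 3100. Among 16 genes of cell cycle exit 11 had both (68.75%). Cdkn1a, the inhibitor p21, had MyoD only, with 3 peaks up to percentile 58.9, and Rbl1, the pocket protein p107, had MyoG only (percentile 51.02), as did Cdkn1c (0.0834). Btg2, an antiproliferative gene that also belongs to the p53 list, stood at 1641 for MyoG and 3100 for MyoD. Of 19 p53 response genes 15 had both (78.95%) and Cdkn1a and Zmat3 had MyoD only. MyoG ranked above MyoD at 8 of 30 pairs of this list, although its highest peaks had a median of 71.1 for MyoG and 62.3 for MyoD.

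Genes of the respiratory chain and of the ribosome had lower medians than the 67.8 for MyoG and 69.1 for MyoD over all genes. Of 31 genes of the mitochondrial respiratory chain 21 had MyoG (67.7%, against 52.9% of all genes) and 17 had MyoD (54.8%, against 56%). Both lay at 16 (51.6%, against 48.1% of all genes). Another 5 had MyoG only (Atp5a1, Ndufb5, Cox7a2, Cox6c and Ndufb3, percentiles 0.718 to 40.01) and Uqcrc2 had MyoD only. Of all genes 4.87% had MyoG only and 8% MyoD only, the shares to set beside such counts in each list here. The highest peaks of the respiratory chain genes had medians of 39.9 for MyoG and 51.3 for MyoD, and none reached the top 10% of either list. Of 34 ribosomal protein genes 14 had both (41.2%, against 48.1% of all genes). MyoG only was found at 4 (Rps16, Rps15, Rps2 and Rpl23) and MyoD only at 6 (Rps9, Rpl12, Rps24, Rpl15, Rps20 and Rpl37). The ribosomal medians were 50.1 for MyoG and 56.3 for MyoD, and 3 genes reached the MyoG top 10% and 3 the MyoD top 10%. Immediate early and cholesterol genes had medians above those of all genes. Immediate early genes (75.4 for MyoG and 74.4 for MyoD) had both in 23 of 27 (85.2%). They had MyoG only at Klf2, Fosb and Egr3 and MyoD only at Dusp5. Cholesterol synthesis (80.2 for MyoG and 74.4 for MyoD) had both in 11 of 23 (47.8%, against 48.1% of all genes), MyoD only at members that include Mvk, Sqle and Idi1, and MyoG only at Nsdhl. Matrix and smooth muscle genes (65.4 for MyoG and 74.1 for MyoD) had both in 19 of 27 (70.4%). They had MyoD only at Col6a1 (percentile 86.2), Dcn and Postn.

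**Figure D4:**
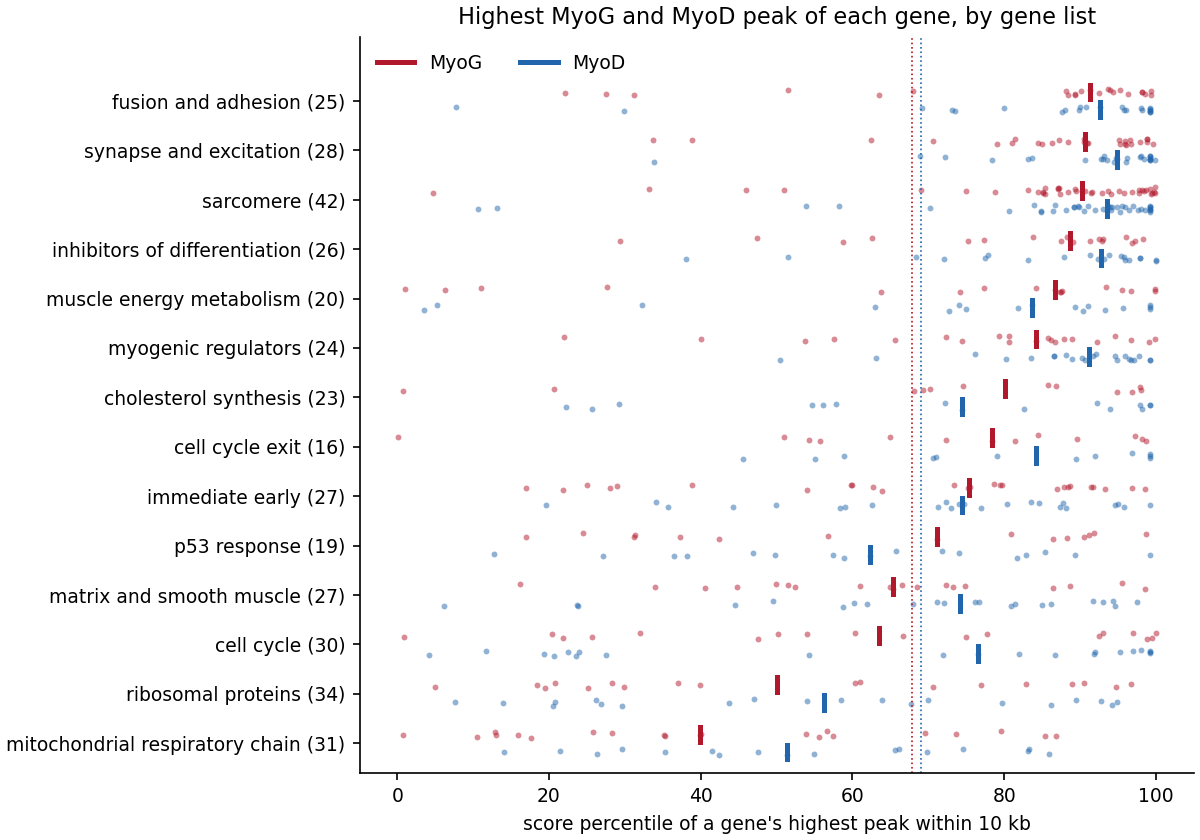
Score percentile (x axis) of each gene's highest MyoG peak (red, upper row of each list) and MyoD peak (blue, lower row) within 10 kb, as points, with list medians as bars and the medians over all genes as dotted lines. The number of measured genes is in brackets, and genes without a peak have no point. Fusion, synapse and sarcomere genes have medians above 90 for both factors, and mitochondrial genes 39.9 for MyoG and 51.3 for MyoD.

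Most starts under a peak of 1 factor alone were under MyoD. A start was counted under a shared site if any peak over it overlapped a peak of the other factor. For 12929 symbols with 1 locus and 1 strand, a shared site lay over the start of 900, a MyoG peak without MyoD over 181 and a MyoD peak without MyoG over 728. MyoD peaks without MyoG were also more numerous (13157 against 7938) and wider (median 669 bp against 469 bp). The counts of starts were not corrected for this. Within 1 kb of a start lay 6.42% of MyoG peaks without MyoD (5.89% to 6.99%) and 9.30% of MyoD peaks without MyoG (8.81% to 9.80%), against 5.55% of shared MyoG peaks and 5.71% of shared MyoD peaks. High-ranking peaks lay near starts less often: 2.996% of the MyoG top 10% and 4.36% of the MyoD top 10% lay within 1 kb, against 7.54% of the lowest MyoG decile and 7.73% of the lowest MyoD decile.

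The GC-core E-box printed above in Acta1, Chrna1 and Chrng was most frequent under shared sites. Among 10815 of these genes with 1 RefSeq start, the 300-base window (250 before the start and 50 from it) held CAGCTG, which reads the same on both strands, in 308 of 711 promoters under a shared site (43.3%, 39.6% to 47.1%). It was in 29 of 154 under MyoG alone (18.8%, 13.0% to 25.9%), in 146 of 611 under MyoD alone (23.9%, 20.6% to 27.5%) and in 1182 of 9339 under neither (12.7%, 12.0% to 13.4%). Over all 10815 promoters the share was 15.4%. The motif CAGGTG, or CACCTG on the other strand, had another order: 25.2% under shared sites (22.0% to 28.5%), 13.0% under MyoG alone (8.12% to 19.3%), 28.3% under MyoD alone (24.8% to 32.1%) and 17.8% under neither, with 18.8% of all promoters. Any CANNTG, which includes both, was in 81.9% of promoters under shared sites, 64.9% under MyoG alone, 75.9% under MyoD alone, 66.9% under neither and 68.4% of all. CACGTG was in 10.7%, 7.79%, 11.5% and 7.79% of these 4 classes in the same order, and in 8.18% of all.

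Base composition moved with the classes: median GC was 60% under shared sites, 57.3% under MyoG alone, 61.7% under MyoD alone and 56.0% under neither, and its part in the shares was not tested. Among the promoters under shared sites with a MyoG peak over the start, the share with CAGCTG by MyoG rank was 40% below percentile 50 (34.2% to 46.0%, n = 280), 56.8% up to percentile 90 (50.2% to 63.2%, n = 236) and 60% above it (44.3% to 74.3%, n = 45). Among the promoters under shared sites with a MyoD peak over the start it was, for the same classes of MyoD rank, 35.7% (29.6% to 42.2%, n = 235), 48.8% (43.7% to 54.0%, n = 379) and 42.5% (32.0% to 53.6%, n = 87). The intervals of the highest classes overlap those of the middle ones. A motif in these windows is a match of letters, not a measured binding site.

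**Figure D5:**
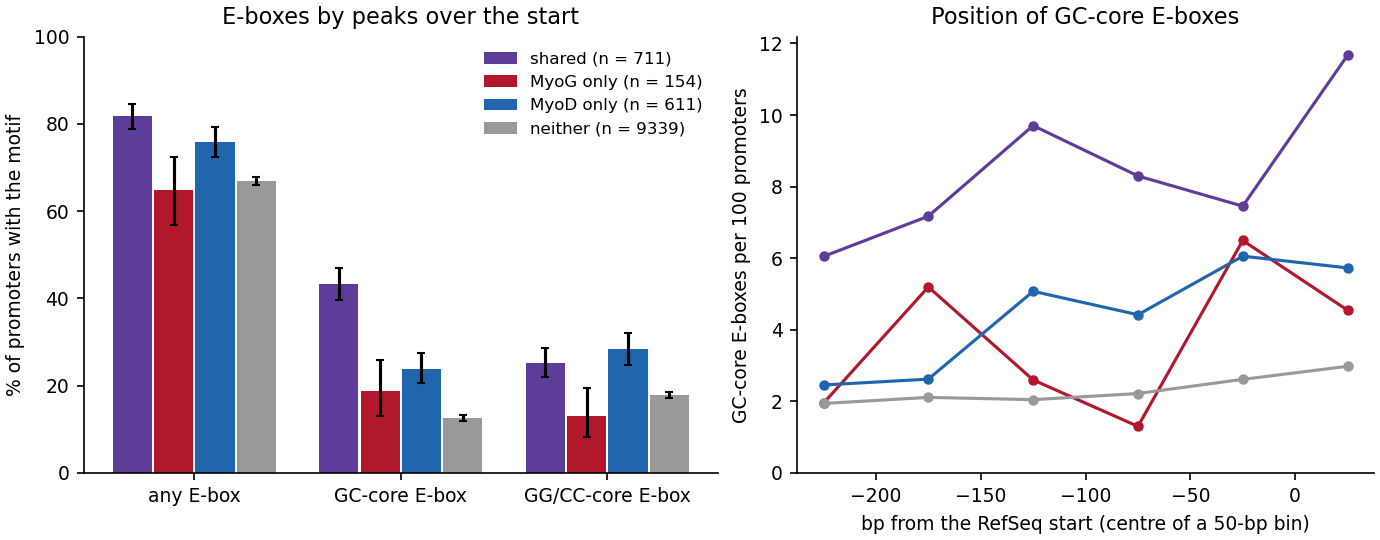
Left: share of promoters (y axis, percent, with 95% Clopper-Pearson bars) with any E-box, with the GC-core E-box or with the GG/CC-core E-box, by the peaks over the gene start, with the number of promoters in brackets. Right: GC-core E-boxes per 100 promoters (y axis) in 50-bp bins by distance from the RefSeq start (x axis). Promoters under shared sites have the GC-core E-box in 43.3% and stand above the other classes in every bin.

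The cell type was checked on RNA of the 4 h control cells, since RNA of the 48 h myotubes was not analysed here. Of 7 muscle markers 5 reached 1 FPKM in both the GFPi and pHAN_GFP libraries, and the list summed to 349 FPKM in GFPi and 637 FPKM in pHAN_GFP, most of it Des, the filament protein desmin, at 266.6 and 460.5 FPKM. Ckm stayed below 1 FPKM in both, and Myh3, embryonic myosin, was at 0.410 and 1.01 FPKM. Markers of other tissues are given for GFPi and then pHAN_GFP. Endothelial markers summed to 0.0411 and 0.120 FPKM and blood markers to 2.52 and 1.60 FPKM, nearly all of it Cd68. Adipocyte markers summed to 11.7 and 11.8 FPKM, most of it Pparg, with Adipoq at 0, osteoblast markers to 13.3 and 10.3 FPKM, most of it Runx2, and neural markers to 25.1 and 51.5 FPKM, most of it the tubulin Tubb3, with Snap25 at 0. MyoG peaks lay within 10 kb of 13 (56.5%) and MyoD peaks within 10 kb of 15 (65.2%) of the 23 measured markers of other tissues, against 52.9% of all genes for MyoG and 56% for MyoD.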

How the data were processed

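The MyoG and MyoD peaks of C2C12 cells come from MACS, according to the headers of the lists, and the score of each peak is the authors' deposited value. How the score is defined and which MACS settings were used is not stated in these sources. The labels name more than 1 run for each factor while each deposited list is single, and the myotube MyoD header refers to run 2. Each H3K4me1 domain has a deposited read count for ChIP, another for its control, and the fold of ChIP over control. SICER and mm9 appear in the submitters' processing notes. The authors' tables give FPKM per coding sequence, summed here per gene symbol. No library's depth is stated, so the number and rank of peaks may carry depth and antibody as well as binding.

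Scores were ranked within a list, ties averaged, as percentiles. A pair is a MyoG and a MyoD peak that are each other's largest overlap. A site belongs to the shortest locus it overlaps, else to the nearest within 50 kb. Named sites are the 15 pairs of highest mean percentile, the 10 highest peaks of each factor without the other and up to 10 pairs of each direction with the largest rank difference; list genes named are the highest-ranked and those with 1 factor only, apart from some genes that are not reported here. The 19 gene lists hold 397 entries, of which Fer1l5 and Pidd are not in the expression tables. Members and lists were chosen with earlier results of these data known.

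Gene starts are the locus edge in mm9, on the strand RefSeq gives the symbol (14344 of 20368 symbols matched). Promoter sequences are from RefSeq (GRCm38.p6) and were joined by symbol, with no conversion of coordinates. Peak coordinates are mm9, counted from 1. No genome of that build was used, so peaks were not searched for motifs. Overlap, pairing and assignment were checked on simulated peaks. Python 3.11, pandas, numpy and scipy were used.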

Additional observations from a re-analysis of the deposited data

How the results depend on the processing

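Of 67 values recomputed under alternatives, 33 stayed within their interval or close to the reported value (counts within 1.5 times, the correlation within 0.01) and 34 moved; none reversed, and for all that moved the cause was not tested unless the alternative removes sites by its construction. No paired analysis was possible because each group holds 1 library. With shared sites defined by peak centres within 250 bp, 70.5% of MyoG peaks had MyoD and 62.8% of MyoD peaks had MyoG, 400 MyoG and 570 MyoD peaks of the top 10% lacked the other factor, and H3K4me1 covered 75.4% of MyoG-only, 88.2% of shared MyoG and 78.6% of MyoD-only sites. With scores of 100 or more in both lists the overlaps were 82.6% for MyoG and 64.5% for MyoD, the correlation 0.66, the H3K4me1 shares 76.5%, 92.0% and 82.7% in the same order, and MyoG was the only factor at 646 genes. With the MyoD list cut to the length of the MyoG list the overlaps were 73.7% for MyoG and 71.1% for MyoD, and 9 pairs were high for MyoG and low for MyoD. Genes with MyoG only then numbered 1263 and genes with MyoD only 1308. The correlation was 0.67 without scores of 3100 or more and 0.65 with pairs not required to be mutual. With the top 5%, 0 pairs were high for MyoG and low for MyoD, 44 were the opposite, and 7 top MyoD peaks lacked MyoG. With percentile 25 in place of 50 as the lower limit these pairs numbered 0 and 52. Domains of fold 3 or more covered 34.7% of MyoG-only, 56.1% of shared MyoG and 40.9% of MyoD-only sites, and peak centres lay inside any domain for 66.7%, 86.8% and 72.5% of them. Among genes of 1 FPKM or more, 616 had MyoG only and 1052 had MyoD only. The share of promoters under shared sites with CAGCTG was 37.1% with peaks within 250 bp of the start and 31.1% within 1 kb, alternatives chosen after seeing the data. In each of these alternatives that gave the values, more MyoG peaks had MyoD than MyoD peaks had MyoG, more pairs were high for MyoD and low for MyoG than the opposite, and shared MyoG sites lay in H3K4me1 more often than MyoG-only sites.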

Other observations

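A few H3K4me1 domains held many sites of both factors. Of the 18575 myotube domains with both, 12407 held 1 MyoG and 1 MyoD peak, whereas 334 held 5 or more MyoG peaks and 365 held 5 or more MyoD peaks. The domain with the most MyoG peaks, 21 beside 25 MyoD peaks, was 78.8 kb long and overlapped Zmiz1, a coactivator of transcription factors. The next 4 overlapped Ccdc88c (15 MyoG and 14 MyoD peaks), Myh9, nonmuscle myosin (15 and 13), Shb, an adaptor protein (14 and 14), and Cbfa2t3, a corepressor (14 and 15). These 5 were chosen after their values were seen, and they were 38.6 to 78.8 kb long.

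Of 23 markers of other tissues, 12 had both factors within 10 kb (52.2%, against 48.1% of all genes) and 7 had neither. The following 4 were chosen after their values were seen. Runx2, the factor of bone formation, had 15 MyoG and 13 MyoD peaks within 10 kb and was at 12.7 FPKM in GFPi and 9.42 FPKM in pHAN_GFP. Mbp, the myelin basic protein, had 9 MyoG and 12 MyoD peaks at 0.631 FPKM in GFPi. Tek, the angiopoietin receptor, had 4 MyoG and 5 MyoD peaks, with highest percentiles of 95.9 for MyoG and 94.95 for MyoD, and was at 0 FPKM in GFPi. Sp7, another bone factor, had 3 MyoG peaks and no MyoD peak, the highest at percentile 15.7. Peaks were taken at 48 h and RNA at 4 h.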
